A study of Mus musculus with 5 samples.

Results

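The genes described here are 10 components of the JAK-STAT pathway in large-intestinal regulatory T (Treg) cells: the transcription factor genes Stat3, Stat4, Stat5a, Stat5b and Stat6, the kinase genes Jak1 and Jak3, and the feedback inhibitor genes Cish, Socs2 and Socs3. They were taken by name and not by a threshold on these counts, although earlier results of these data were known when the set was chosen. H3K27ac, the acetylation of lysine 27 on histone H3 found at active promoters and enhancers, was measured by CUT&Tag, in which an antibody tethers a transposase that cuts adapters into the DNA beside the mark. Every peak overlapping a gene's annotated span extended by 10 kb on each side was counted for that gene. This gave 152 of the 124158 peaks, and 124 of the 152 held at least 10 counts in at least 2 libraries and were tested. Of the 152, 40 lay nearer to the start of a gene other than the one they were counted for.

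Both groups were C57BL/6 mice of 2 weeks of age that carried Foxp3Cre, a Cre recombinase with YFP expressed under Foxp3, the lineage factor of Treg cells. Ctrl mice carried 1 floxed and 1 normal allele of Setd2 (Setd2 f/+), and KO mice carried 2 floxed alleles (Setd2 f/f), so Ctrl cells could also lose 1 copy. Setd2 encodes the methyltransferase for H3K36me3, and the comparison asks how H3K27ac at these genes differed when both copies could be lost. Each group had 2 libraries, and each library came from 60000 sorted CD3+CD4+YFP+ cells pooled from 3 to 5 mice, so variation between single mice was not measured. An IgG library was listed without counts and was not analysed here.

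Cytokines of the common gamma chain family, IL-2 among them, signal through receptor chains that hold JAK1 and JAK3. The kinases phosphorylate STAT proteins, which pair, enter the nucleus and bind DNA at palindromic TTC and GAA sequences. STAT5 downstream of IL-2 is needed for Foxp3 expression and Treg cell survival, STAT3 answers IL-6 and IL-10 family cytokines, STAT4 answers IL-12, and STAT6 answers IL-4 and IL-13. Cish, Socs2 and Socs3 are themselves induced by STAT proteins, and their products bind receptors or kinases and dampen the signal.

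Library totals ranged from 2395002 to 4712473 counts in peaks, and KO 2 was the deepest library. CPM values below are read counts divided by each library's TMM-adjusted size. At Setd2 itself H3K27ac was 76.5 and 114 CPM in Ctrl and 57.4 and 81.9 CPM in KO, with a log2 fold change of -0.45 (edgeR adjusted p = 1.0), a measure that does not show the deleted exon. The defining markers of Treg and T cells carried H3K27ac in every library, from 3.47 CPM per kb of gene window at Cd3e to 13.3 at Ctla4. Summed CPM of the 7 Treg and T cell markers was 2760 and 3100 in Ctrl and 3230 and 3860 in KO. Among markers of other cells, Ms4a1 and Lyz2 held 0 counts, the 4 epithelial markers reached at most 0.471 CPM per kb, the 2 CD8 markers at most 0.427, and the 3 myeloid markers at most 0.986. The B cell gene Cd79a was the exception at 10.7 CPM per kb, while Pax5 stood at 0.033. Each marker window reached 10 kb beyond the gene on each side, so peaks of neighbouring genes can count in it. The summed CPM of the 3 B cell markers was 227 and 277 in Ctrl and 219 and 362 in KO, and their part in the results was not tested. Fewer cells of a type and less H3K27ac per cell cannot be told apart in pooled cells.

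Per kb of window, Cish was by far the most heavily acetylated of the 10 genes. Averaged over the 4 libraries, its window held 28.4 CPM per kb, the 4th highest of 15047 tested gene loci, where the median locus held 1.12. Stat6 followed with 10.4 CPM per kb, then Socs3 with 5.51, Jak1 with 4.86, Stat5b with 4.76, Jak3 with 4.23, Stat5a with 3.02, Stat4 with 2.98, Stat3 with 2.29 and Socs2 with 0.716. In this order of levels per kb, Cish stood apart from Stat6, Stat6 from Socs3, and Stat3 from Socs2, with no overlap of libraries. The 6 neighbouring pairs between Socs3 and Stat3 had overlapping ranges over the 4 libraries. Compared within each library, Stat5b exceeded Jak3, Jak3 exceeded Stat5a and Stat4 exceeded Stat3 in 4 of 4, Socs3 exceeded Jak1 in 3, and Jak1 over Stat5b and Stat5a over Stat4 held in 2. Socs2 was the only one of the 10 below the median locus. These levels divide by the whole window and so depend on its length. Per kb covered by peaks, Cish (28.7 CPM) and Stat6 (19.8) were again highest, followed by Stat3 (14.8), and Jak1 was lowest (10.9). Peaks shared by Stat3, Stat5a and Stat5b were each counted once while window lengths were kept, so the levels of these genes depend on that assignment.

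**Figure D1:**
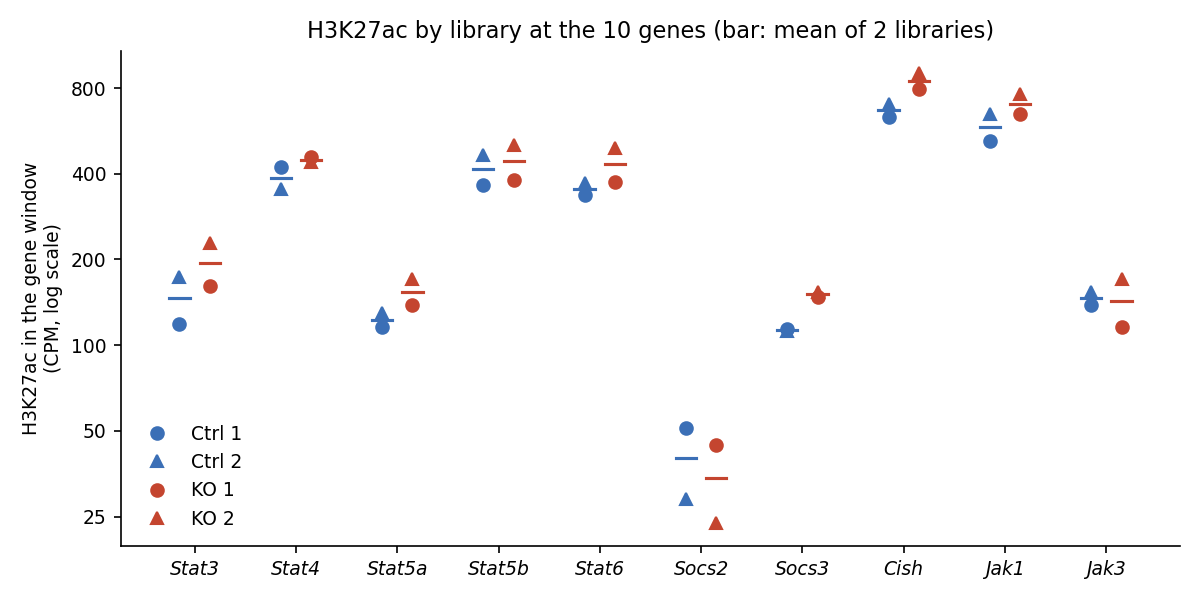
H3K27ac in each gene window (CPM, log axis) for the libraries Ctrl 1 and 2 (blue) and KO 1 and 2 (red), with a bar at the mean of 2 libraries. Each KO library exceeded each Ctrl library at Stat4, Stat5a, Stat6, Socs3, Cish and, by the smallest margin, Jak1, and no gene passed the adjusted test. The same held at 12.8% of all tested loci and at 26.1% of the 1505 loci with most counts.

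Cish, one of the feedback inhibitor genes, showed the broadest domain of the set. A single peak of 16326 bp (chr9:107293991-107310316, mm10) covered the gene from its promoter through coding exons and UTRs to beyond its 3′ end, and it ranked 48th in width and 12th in counts of all 124158 peaks. It took 64.3% of the counts at the locus. Together the 4 peaks covered 89.1% of the Cish window. The peak with the next most counts, chr9:107284914-107291461 upstream, spans the start of the neighbouring gene Mapkapk3.

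The palindrome with a spacer of 3 bases, TTCNNNGAA, reads the same on both strands and was present 16 times in the wide Cish peak. In 20 matches over 26.4 kb, the Cish peaks held 0.756 per kb, against 0.294 per kb over all 74550 tested peaks. The Socs2 peaks held 0.937 per kb in 3 matches and the Socs3 peaks 0.858 per kb in 9 matches, whereas Stat5b held 0.156, Stat3 0.174 and Jak3 0.0938 per kb. The Stat4, Stat5a and Jak1 peaks lay between 0.338 and 0.381 and the Stat6 peaks at 0.252. The form with a spacer of 4 bases, TTCNNNNGAA, occurred 12 times in the Cish peaks, at 0.454 per kb against 0.249 in all tested peaks, and 0 times in those of Socs2 and Socs3. It was densest at Stat3, with 7 matches and 0.608 per kb, and next at Cish and at Stat4, where 14 matches gave 0.444 per kb. Both forms were counted at any overlap, and a match describes letters and not binding.

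The stretches below carry the matches closest to the starts of the feedback genes, given because pairs of them stand side by side at Cish and Socs2. They were read from GRCm38.p6 (the assembly of mm10) on the strand of the gene, with each TTCNNNGAA match in capitals. The first Cish stretch lies at chr9:107296654-107296683 on the plus strand, with matches 51 and 40 bases before the downstream of 2 annotated starts. The second lies at chr9:107296762-107296791, with matches 55 and 72 bases into the transcript from that start. Both lie in the 5′ UTR of the longer transcript. The first match of the first stretch begins at the RefSeq start of Cish, so both pairs lie downstream of any base before that start. The Socs2 stretch, chr10:95416899-95416928 on the minus strand, holds 2 identical matches 66 and 55 bases before an annotated start. The Socs3 stretch, chr11:117969229-117969257 on the minus strand, holds a match 61 bases before the start of its GENCODE basic transcript, which lies downstream of the RefSeq start of Socs3 used further on.
Cish, first pair: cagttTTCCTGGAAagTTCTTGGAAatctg
Cish, second pair: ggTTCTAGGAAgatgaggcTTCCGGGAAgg
Socs2, pair: gcggaTTCCTGGAAagTTCCTGGAAagcgg
Socs3, single: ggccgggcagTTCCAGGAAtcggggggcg

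RefSeq promoter windows of 300 bases (250 before and 50 after a start, build GRCm38.p6) were found for 9 of the 10 genes, all but Socs2, in 12 windows. Of these genes, only Cish and Socs3 held TTCNNNGAA, which occurs in 8.3% of all 32851 windows. None held TTCNNNNGAA, which occurs in 6.95%. The upstream part of the Socs3 window, chr11:117969367-117969616 on the minus strand, lies under the widest Socs3 peak and is given with its match in capitals as the promoter context of a feedback gene.
Socs3, 250 bases upstream of the RefSeq start: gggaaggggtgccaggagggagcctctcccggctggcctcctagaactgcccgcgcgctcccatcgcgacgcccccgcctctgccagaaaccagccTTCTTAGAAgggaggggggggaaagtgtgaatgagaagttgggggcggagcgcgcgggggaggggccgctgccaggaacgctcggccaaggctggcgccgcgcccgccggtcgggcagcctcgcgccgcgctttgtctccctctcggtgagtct

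Between genotypes, H3K27ac at Cish was 635 and 706 CPM for Ctrl 1 and 2 and 795 and 902 CPM for KO 1 and 2. Each KO library exceeded each Ctrl library (670 ± 50.3 against 848 ± 75.3 CPM, SD, n = 2 each). The log2 fold change was 0.34 with a 95% interval of -0.08 to 0.75, and the edgeR quasi-likelihood test gave an adjusted p = 1.0. The wide promoter peak showed 402 and 462 CPM in Ctrl and 514 and 576 in KO, with a log2 fold change of 0.34 (SE 0.23). The peak over Mapkapk3 showed 139 and 137 CPM in Ctrl and 171 and 211 in KO, the smallest unadjusted p at the locus, with a log2 fold change of 0.47 (edgeR adjusted p = 0.998). With an offset for abundance, which removes the trend of fold change with H3K27ac level over all loci, the log2 fold change at Cish was 0.11, and without KO 2 it was 0.21. Cish lies 3.23 Mb from Setd2 on chromosome 9, so an effect of the Setd2 genotype and one of DNA inherited with the floxed allele cannot be told apart there.

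Socs3, which restrains signalling through gp130 and other receptors, showed the closest replicates of the set. Its window held 114 and 112 CPM in Ctrl and 148 and 154 CPM in KO, and the groups did not overlap. The log2 fold change was 0.42 (95% interval -0.09 to 0.93, edgeR adjusted p = 1.0). All 8 tested Socs3 peaks had a positive log2 fold change, between 0.07 and 1.07, and in 7 of them both KO libraries were above both Ctrl libraries, against 16.9% of all tested peaks and 27.2% of the tenth of peaks with most counts. The promoter peak chr11:117967551-117970887 differed little, with 60.6 and 59.2 CPM in Ctrl and 64.1 and 70.4 in KO, with a log2 fold change of 0.17 (SE 0.30). The highest value was at a small peak over a UTR, chr11:117966404-117967010, with 5.88 and 3.27 CPM in Ctrl and 6.33 and 12.2 in KO, with a log2 fold change of 1.07 (SE 0.62). Beyond the 3′ end of the gene, the most abundant peak, chr11:117963154-117965987, held 28 and 30.1 CPM in Ctrl and 45.1 and 37.6 in KO, with a log2 fold change of 0.50 (SE 0.33). Both peaks kept their groups apart. The smallest p was also beyond the 3′ end, at chr11:117959566-117961144, with 9.5 and 4.17 CPM in Ctrl and 11.2 and 16.3 in KO, with a log2 fold change of 1.06 (edgeR adjusted p = 0.998). Counted over the gene span alone, without the 10 kb extension, the Socs3 log2 fold change was 0.25.

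Socs2, known for limiting growth hormone and STAT5 signals, held the least H3K27ac of the 10 genes in total and per kb of window. It had 2 peaks, both at promoters. The window held 51.1 and 28.9 CPM in Ctrl and 44.7 and 23.7 in KO. The second library was lower than the first in both genotypes, and the groups overlapped, with a log2 fold change of -0.23 (95% interval -1.13 to 0.68, edgeR adjusted p = 1.0). The peak with the paired matches, chr10:95416234-95417991, held 31.7 and 21.1 CPM in Ctrl and 22.7 and 14.4 in KO, with a log2 fold change of -0.51 (SE 0.38). The other, chr10:95414348-95415791, held 19.5 and 7.74 CPM in Ctrl and 22 and 9.34 in KO, with a log2 fold change of 0.21 (SE 0.45). Without Ctrl 1 the value of the locus was 0.23 and without KO 2 it was 0.15, so its direction rested on single libraries.

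**Figure D2:**
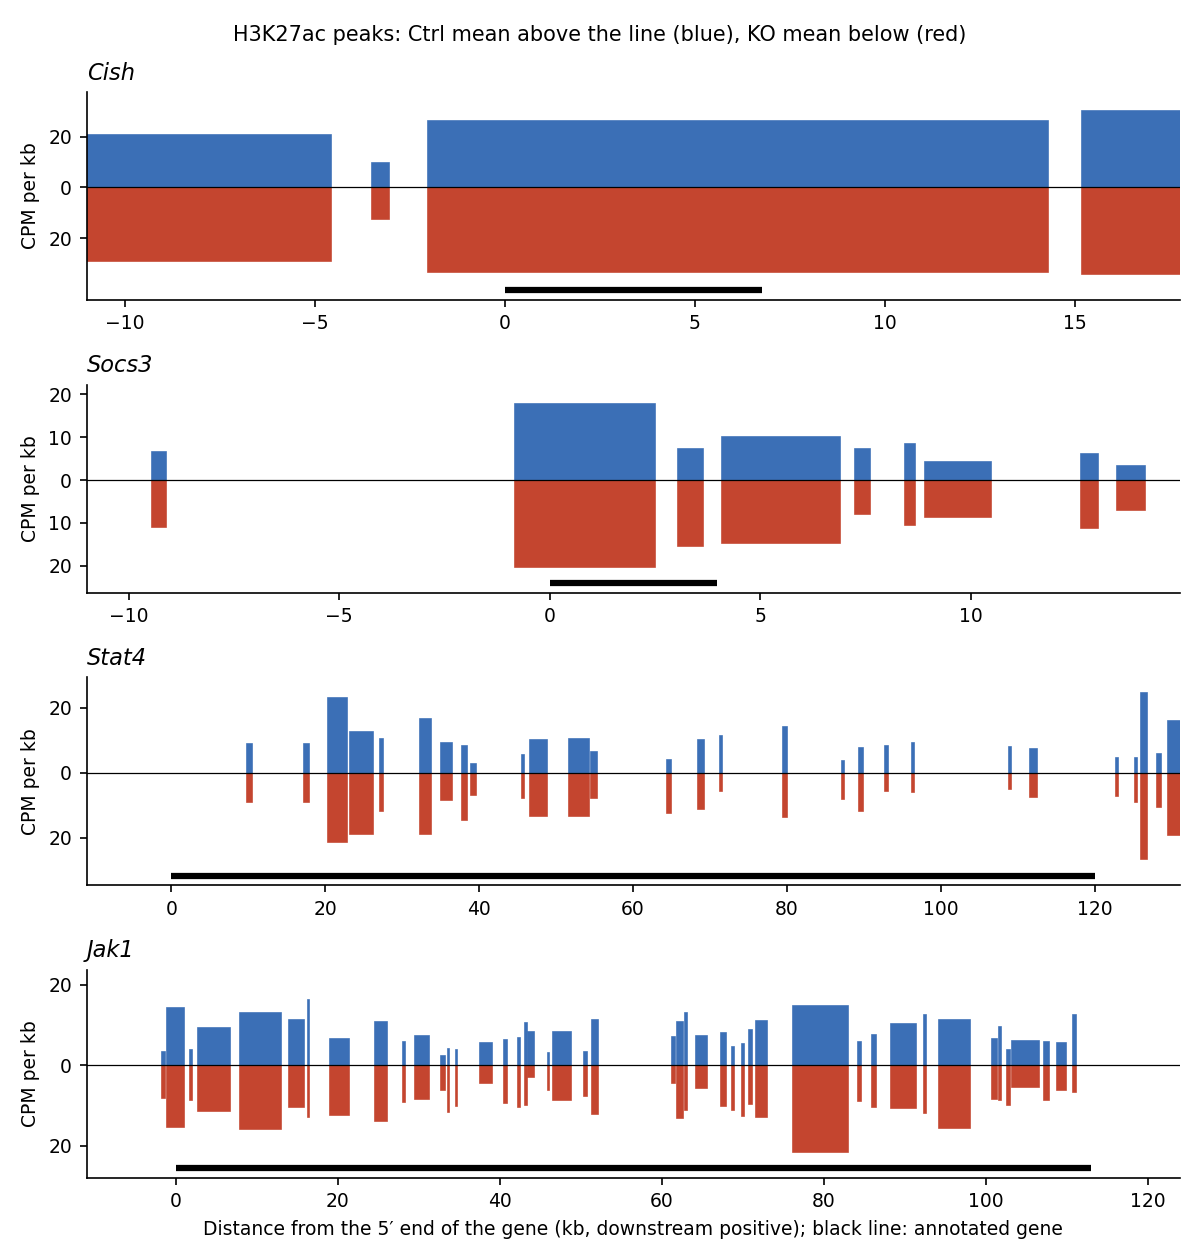
H3K27ac per peak at Cish, Socs3, Stat4 and Jak1, as mean CPM per kb of peak in Ctrl (blue, upward) and KO (red, downward), against the distance in kb from the 5′ end of the gene. Each block is as wide as its peak, the black line is the annotated gene, and the Cish block of 16326 bp runs past both ends of its gene.

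Stat5a and Stat5b encode the near-identical transducers of IL-2 and lie next to each other and to Stat3 on chromosome 11. Their windows and that of Stat3 shared 15 peaks, each of which was counted once, for the gene with the nearest start. Only uniquely mapped reads had been kept, so stretches that Stat5a and Stat5b share letter for letter may be undercounted. Stat5a held 116 and 130 CPM in Ctrl and 138 and 171 in KO, and the groups did not overlap, for a log2 fold change of 0.33 (95% interval -0.21 to 0.86). Without KO 2 this value was 0.13. Most of its signal, 75.4%, was in promoter peaks, and the main one, chr11:100858090-100862417, held 68.8 and 58.6 CPM in Ctrl and 82 and 93 in KO, with a log2 fold change of 0.46 (SE 0.29). Over its 3 promoter peaks the difference was the largest promoter value of the 10 genes, with a log2 fold change of 0.49 (95% interval -0.04 to 1.02, edgeR adjusted p = 0.999). Its most abundant other peak, chr11:100885342-100886488, lay downstream of the gene and inside the annotated span of Stat3. It pointed the other way, with a log2 fold change of -0.58 (SE 0.51). Its groups overlapped, at 7.24 and 17 CPM in Ctrl and 3.73 and 12.2 in KO. Stat5b was assigned more of the mark per kb of window than Stat5a, at 4.05 to 5.6 CPM per kb over the 4 libraries against 2.53 to 3.72. Of the shared peaks, 4 in the Stat5a window and 3 in the Stat5b window were counted for another gene, with window lengths unchanged. Levels with shared peaks counted for both genes were not computed. Stat5b held 365 and 466 CPM in Ctrl and 379 and 504 in KO over 22 peaks. Its groups overlapped, with a log2 fold change of 0.09 (95% interval -0.43 to 0.61). Its main promoter peak, chr11:100844703-100850549, showed 99.5 and 132 CPM in Ctrl and 90.5 and 135 in KO. The largest peak of its gene body, chr11:100840700-100844479 in an intron, held 52.5 and 72 CPM in Ctrl and 65.6 and 69.7 in KO. The direction of Stat5b turned with the abundance offset (-0.08) and with a minimum of 50 counts (-0.04).

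The Stat5b window also held the smallest unadjusted p of all 124 tested peaks. This peak, chr11:100769960-100771538, spans the start of Ghdc downstream of Stat5b and not Stat5b itself. It held 8.14 and 8.04 CPM in Ctrl and 13.8 and 23.5 in KO, with a log2 fold change of 1.21 (SE 0.47, edgeR adjusted p = 0.998).

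Stat3, which also shapes the RORγt program of intestinal T cells, held 119 and 174 CPM in Ctrl and 161 and 228 in KO. KO 1 lay below Ctrl 2, so the groups overlapped, with a log2 fold change of 0.41 (95% interval -0.22 to 1.03, edgeR adjusted p = 1.0). The size rested on single libraries, at 0.10 without KO 2, 0.15 without Ctrl 1, 0.62 without KO 1 and 0.72 without Ctrl 2. The promoter peak chr11:100938749-100940384 did not overlap between groups, at 51.6 and 57.7 CPM in Ctrl and 63.3 and 89.1 in KO, with a log2 fold change of 0.48 (SE 0.30). An intronic peak, chr11:100930788-100935867, held 38.9 and 67.6 CPM in Ctrl and 51.4 and 82.9 in KO, with a log2 fold change of 0.33. The smallest p was in a peak over a coding exon, chr11:100904356-100905850, at 9.5 and 12.8 CPM in Ctrl and 14.9 and 24 in KO, with a log2 fold change of 0.80 (edgeR adjusted p = 0.998). With 8 peaks inside the Stat3 span moved from Stat5a to Stat3, the locus values became 0.31 for Stat3 and 0.48 for Stat5a.

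Among peaks inside its annotated span, Stat4, the IL-12 effector that drives Th1 genes, carried the strongest mark about an internal start and not at the 5′ end. Its window held 421 and 353 CPM in Ctrl and 457 and 440 in KO, and both KO libraries were higher, with a log2 fold change of 0.21 (95% interval -0.25 to 0.67, edgeR adjusted p = 1.0). This value was 0.05 with the abundance offset, 0.09 without Ctrl 2 and 0.34 without Ctrl 1. Of its 28 peaks, 12 lay nearer to the start of another gene, with 35.2% of the counts. Restricted to peaks whose nearest start is that of Stat4, the log2 fold change was 0.23. The promoter peak over the internal start, chr1:52007374-52009972, held 69.2 and 51.5 CPM in Ctrl and 48.1 and 62.8 in KO, with a log2 fold change of -0.11 (SE 0.30). The peak beside it, chr1:52010280-52013387, held 35.3 and 44.9 CPM in Ctrl and 55.1 and 61.3 in KO, with a log2 fold change of 0.53 (SE 0.31). The smallest p at Stat4 was in an intronic peak of few counts, chr1:52051449-52052064, at 4.52 and 0.595 CPM in Ctrl and 7.45 and 7.91 in KO, with a log2 fold change of 1.68 (SE 0.76, edgeR adjusted p = 0.998).

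Stat6, the IL-4 effector, had the second highest level per kb, but 74.5% of the counts lay in 4 peaks nearer to the starts of Nab2 and Nemp1. The window held 337 and 372 CPM in Ctrl and 374 and 491 in KO, with a log2 fold change of 0.29 (95% interval -0.20 to 0.78, edgeR adjusted p = 1.0). The lower KO library exceeded the higher Ctrl library by a small margin, and the value was 0.05 without KO 2, 0.45 without KO 1 and 0.12 with the abundance offset. The Stat6 promoter peak, chr10:127641748-127644287, overlapped between groups at 78.3 and 89.3 CPM in Ctrl and 83.8 and 108 in KO, with a log2 fold change of 0.19 (SE 0.28). The peak spanning the Nemp1 start, chr10:127663782-127671768, held 149 and 143 CPM in Ctrl and 158 and 221 in KO, with a log2 fold change of 0.38 (SE 0.26). Restricted to peaks whose nearest start is that of Stat6, the log2 fold change was 0.17.

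By share of counts, the mark lay mainly along the gene body at Jak1 and mainly at the promoter at Jak3. Jak1 spans 112.92 kb and Jak3 14.28 kb, so these shares also depend on gene length. Jak1, the kinase shared by many cytokine receptors of T cells, had 45 peaks, and 87.3% of its counts were in gene body peaks. Its window held 522 and 649 CPM in Ctrl and 650 and 762 in KO, with a log2 fold change of 0.27 (95% interval -0.18 to 0.72, edgeR adjusted p = 1.0). KO 1 and Ctrl 2 were nearly equal, and the value was 0.06 with the abundance offset, 0.11 without Ctrl 1, 0.12 without KO 2 and 0.44 without Ctrl 2. Its most abundant peak was 6934 bp wide and lay over coding exons, at chr4:101182294-101189227, at 87.3 and 121 CPM in Ctrl and 140 and 158 in KO, with a log2 fold change of 0.52 (SE 0.27, edgeR adjusted p = 0.998). The peak over the start of Jak1, chr4:101264241-101266542, held 30.8 and 36 CPM in Ctrl and 30.6 and 40.5 in KO, with a log2 fold change of 0.09 (SE 0.33). The most abundant promoter peak, chr4:101258637-101262696 in the first part of the gene, held 32.6 and 44.9 CPM in Ctrl and 39.9 and 51.5 in KO. Intronic peaks with small p pointed both ways. At chr4:101243956-101246339, Ctrl held 6.33 and 26.2 CPM and KO held 29.1 and 29.9, with a log2 fold change of 0.81 (edgeR adjusted p = 0.998). At chr4:101221100-101221975, Ctrl held 7.24 and 7.74 CPM and KO 1.49 and 3.35, with a log2 fold change of -1.57 (edgeR adjusted p = 0.998).

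Jak3, the kinase bound to the common gamma chain, kept 62% of its counts at the promoter. Its window held 138 and 154 CPM in Ctrl and 116 and 171 in KO, with KO values on either side of Ctrl, with a log2 fold change of -0.03 (95% interval -0.61 to 0.55). The promoter peak chr8:71675136-71680301 held 73.3 and 96.7 CPM in Ctrl and 69.7 and 111 in KO, with a log2 fold change of 0.09 (SE 0.28). The most abundant other peak, chr8:71671278-71671904 over the start of Unc13a, held 15.4 and 6.55 CPM in Ctrl and 11.2 and 10.8 in KO. A downstream peak nearer to Insl3, chr8:71693434-71694259, held 12.7 and 4.17 CPM in Ctrl and 1.49 and 4.31 in KO, with a log2 fold change of -1.43 (edgeR adjusted p = 0.998), and its groups overlapped.

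**Figure D3:**
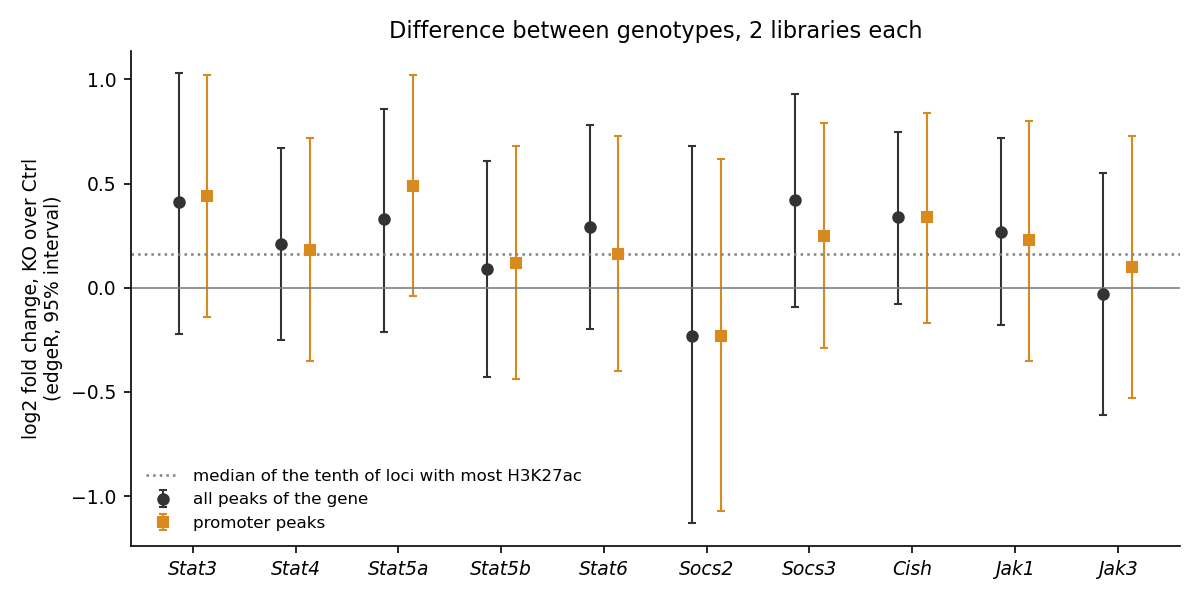
Log2 fold change of KO over Ctrl at each gene with its 95% interval (edgeR), for all peaks of the gene (circles) and its promoter peaks (squares), with 2 libraries per genotype. Every interval includes 0, and the dotted line at 0.16 is the median of the tenth of loci with most H3K27ac.

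Over the 10 genes, 8 loci had a positive and 2 a negative log2 fold change, with a median of 0.28. Over all 15047 tested loci, 49.2% were positive and the median was -0.01. H3K27ac level moved with the fold change, and 5 of the 10 genes were among the 1505 loci with most counts, of which 78.7% were positive with a median of 0.16. With the abundance offset the median of the 10 genes was 0.09, and without KO 2 it was 0.13. At 6 of the 10 genes both KO libraries were above both Ctrl libraries, against 12.8% of all loci and 26.1% of the 1505, and at 0 genes both were below, against 16.4% of all loci. The edgeR test called 0 of the 10 loci at an adjusted p under 0.05, as it called 0 of all loci (0.0%). At an unadjusted p under 0.05, 0 of the 10 passed in either direction, where 0.419% of all loci were higher and 2.13% lower in KO, and DESeq2 also gave 0 by both criteria. In 7 genes the second library was above the first in both genotypes, and in 2 (Stat4 and Socs2) it was below in both, shares that were 38.4% and 35% over all loci.

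Promoter peaks alone gave a similar picture, with 9 of 10 genes positive and a median of 0.20, against 58.8% and a median of 0.07 over 11562 tested promoters. The 1157 promoters with most counts, which included 6 of the 10, were 83.8% positive with the same median of 0.20. At 4 genes (Stat3, Stat5a, Socs3 and Cish) the promoter signal of both KO libraries was above both Ctrl libraries, against 17.8% of all promoters and 31.6% of the 1157. At 0 genes it was below in both, against 8.93%. No promoter of the 10 passed the edgeR test (0.0% of all promoters did), and 0 had an unadjusted p under 0.05 in edgeR or DESeq2, against 0.83% higher and 0.458% lower over all promoters. With the abundance offset the median of the 10 promoters was 0.02 and that of Cish was -0.03.

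Among single peaks, 89 of the 124 tested had a positive log2 fold change, with a median of 0.20, against 49.2% and -0.01 over all 74550 tested peaks. Among the 7455 peaks with most counts, 74.2% were positive and the median was 0.16, close to the values of the 124. In 37 of the 124 (29.8%) both KO libraries were above both Ctrl libraries, against 16.9% of all peaks and 27.2% of the 7455, and in 5 both were below, against 16.4%. The 24 promoter peaks had a median of 0.21, the 78 gene body peaks 0.15 and the 22 flanking peaks 0.38. None of the 124 passed the adjusted edgeR test, as 1 peak of all (0.00134%) did. At an unadjusted p under 0.05, 4 were higher, against 1.45% of all peaks, and 2 were lower, against 2.79%. DESeq2 called 0 of the 124 and gave 1 an unadjusted p under 0.05, the peak over Ghdc. Peaks of one gene share its chromatin and are not independent observations.

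**Figure D4:**
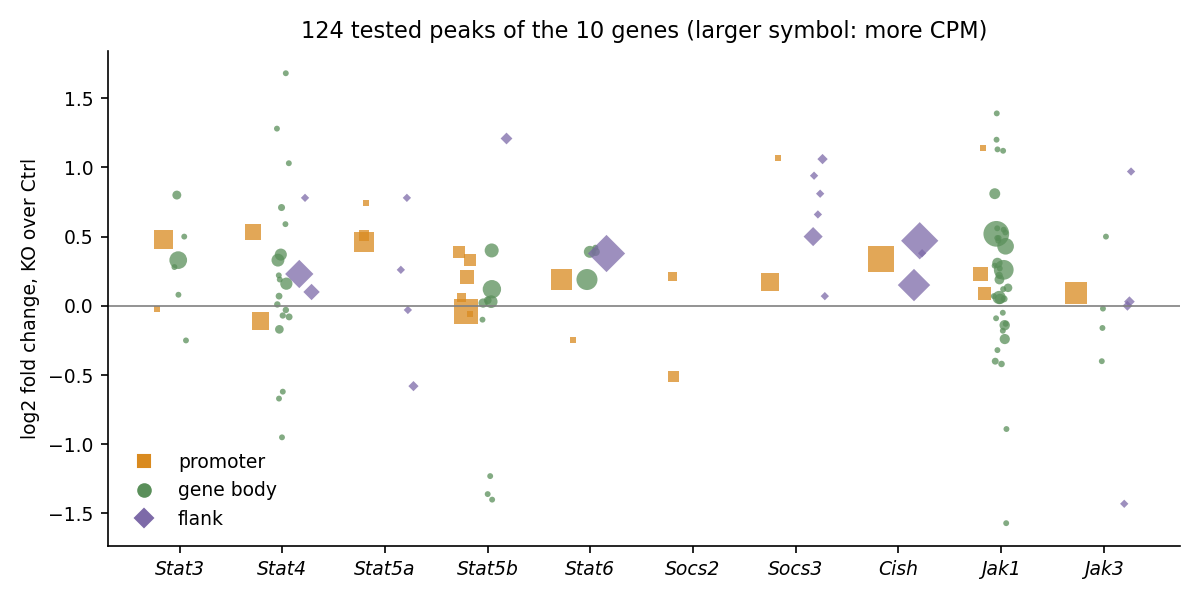
Log2 fold change of KO over Ctrl for each of the 124 tested peaks by gene, as promoter (squares), gene body (circles) or flanking peaks (diamonds), with larger symbols for higher mean CPM. All Socs3 and Cish peaks lie above 0, and the values beyond 1 in either direction belong to small symbols.

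The other components of the pathway were examined as 37 genes. All were tested, 0 were called by edgeR at the locus, and 0 had an unadjusted p under 0.05 in edgeR or DESeq2. The log2 fold change was positive at 29 and negative at 8, with a median of 0.17. Positive shares were 49.2% over all loci and 78.7% over the 1505 with most counts. Both KO libraries were above both Ctrl libraries at 6 of the 37 and below both at 2 (Socs4 and Pias3). Over all loci the shares were 12.8% above and 16.4% below. Of the 20 receptor genes 17 were positive, with a median of 0.30, and at 5 of them (Il2ra, Il4ra, Il10rb, Il15ra and Ifnar2) both KO libraries were above both Ctrl libraries, against 12.8% of all loci and 26.1% of the 1505 with most counts. Il2ra, the high-affinity IL-2 receptor chain that marks Treg cells, held 385 and 400 CPM in Ctrl and 458 and 470 in KO, with a log2 fold change of 0.24 (SE 0.20). The smallest p of the 37 was at Socs4, with 126 and 133 CPM in Ctrl and 104 and 89.8 in KO, with a log2 fold change of -0.42 (edgeR adjusted p = 1.0). Stat2 held 111 and 126 in Ctrl and 117 and 121 in KO. Socs1, an inducible inhibitor like Socs3, held 340 and 332 CPM in Ctrl and 315 and 443 in KO, with a log2 fold change of 0.17 (SE 0.23). The kinase genes Jak2 and Tyk2 had log2 fold changes of 0.12 and 0.16.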

How the data were processed

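The authors aligned paired-end CUT&Tag reads to mm10 with Bowtie2, kept unique alignments, removed duplicates, called peaks with MACS2 over the IgG library, and merged them and counted reads in them with bedtools (versions not given in the sources used here). The deposited values were raw counts per peak for 2 Ctrl and 2 KO libraries, with 2395002 to 4712473 counts in all per library. Peaks were placed on GENCODE M21 basic protein-coding genes. A promoter peak lay within 3 kb of a start, and a peak shared by member genes went to the nearest start. For loci and promoters of all genes, counts were summed over the same windows. Peaks shared with or between genes outside the set counted for each gene. KO minus Ctrl was tested in edgeR 4.0.16 (R 4.3.3, quasi-likelihood F-test), with TMM factors from the peak table, features of at least 10 counts in at least 2 libraries, no covariate and Benjamini-Hochberg adjustment over all 74550 peaks, 15047 loci or 11562 promoters. For peaks the estimated prior degrees of freedom were infinite, so a peak's own replicate spread did not enter its test. DESeq2 1.42.0 was an alternative. Genes, lists and tests were chosen with earlier results of these data known. Per gene, the peaks named were the promoter peak and the other peak with most counts and the peak with the smallest p (1 of these is not reported), and a few more were named after their values were seen. The code was tested on simulated counts. The labels name the libraries as separate samples, and the study states that each was pooled from mice. The p-values of loci and promoters therefore draw on the spread between pools and on a spread estimated across features. The prior degrees of freedom were 7.59 for loci and 8.88 for promoters. The p-values of peaks rest on a spread estimated across peaks alone. Some marker, pathway and peak results are not reported here.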

Additional observations from a re-analysis of the deposited data

How the results depend on the processing

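No member gene was called under any alternative without a replicate block. The replicate block (library 1 paired with library 1, 2 with 2) called 5 member loci higher and 0 lower, namely Cish (adjusted p = 0.000202), Jak1 (0.00792), Stat3 (0.0155), Stat6 (0.0251) and Socs3 (0.0264), with 642 loci (4.27%) called higher and 618 (4.11%) lower overall. Labels do not say that numbers mark a shared litter or day. Deviations of Ctrl 1 and KO 1 from their group means correlated at r = 0.257 over 74550 peaks, and the block leaves 1 residual degree of freedom, so the libraries are treated as sharing only a number. The block called no member peak or promoter.

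The median of the member loci was 0.28 and fell to 0.09 with the abundance offset. Leaving out single libraries gave 0.13 (without KO 2) to 0.39. The median of the member promoters was 0.20 and fell to 0.02 with the abundance offset, and leaving out single libraries gave 0.05 to 0.36. A minimum of 50 counts moved the median of all loci to -0.12 and that of the member loci to 0.16.

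Of 150 locus values under alternatives 11 changed sign, and of 130 promoter values 14. For loci, the abundance offset gave -0.08 and the 50-count minimum -0.04 at Stat5b. Jak3 was 0.03 with all features of any count, 0.01 without the extension and 0.01 with peaks of the nearest start. For promoters, the abundance offset gave -0.16 at Stat5b, -0.04 at Jak3 and -0.03 at Cish, the 50-count minimum -0.01 at Stat5b and -0.03 at Jak3, and the 1 kb limit -0.11 at Stat4. Leaving out 1 library gave loci of -0.17 to 0.28 at Stat5b, -0.76 to 0.23 at Socs2 and -0.38 to 0.21 at Jak3, and promoters of -0.13 to 0.30 at Stat5b, -0.10 to 0.34 at Stat6, -0.76 to 0.22 at Socs2, -0.01 to 0.42 at Jak1 and -0.31 to 0.38 at Jak3. The cause of these changes was not tested. Counts of the Stat3 span moved to Stat3 were an alternative chosen after seeing the data. Low counts widened the error, from an SE of 0.23 at the wide Cish peak of 6225 counts to 1.06 at a Socs3 peak of 37 counts.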
